A study of Mus musculus with 22 samples.

Results

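Aminoacyl-tRNA synthetases were followed here through ribosome profiling of mouse fibroblasts depleted of DENR. The set was named in advance as 36 genes and all 36 were found among the 10516 genes with a value: 20 that encode cytosolic enzymes and 16, marked by the suffix 2, that encode mitochondrial enzymes. None was chosen by a measured value, but the set was proposed with earlier results of these data known. Gene symbols follow the annotation, apart from Mars1, which it lists as Mars.

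NIH3T3 cells, an established mouse fibroblast line, were transduced with lentiviral pLKO.1puro vectors and selected with puromycin. Denr knockdown (Denr Kd) used Denr shRNA1 (3 lysates) or Denr shRNA2 (3 lysates), and the controls carried scramble shRNA (3 lysates) or Gfp shRNA (2 lysates). All 11 lysates therefore share the vector, the selection and a cycloheximide treatment of 100 µg/ml for 2 min. Each lysate gave a ribosome-protected footprint library (RPF-seq) and a total RNA library (RNA-seq), so that 22 libraries enter. The model is a partial depletion in bulk cultures of a single immortalised line, not a null allele.

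An aminoacyl-tRNA synthetase joins an amino acid to its cognate tRNA, the step that gives the genetic code its meaning. Cytosolic and mitochondrial protein synthesis mostly use separate, nuclear-encoded enzymes. Exceptions are Gars and Kars, each of which supplies both compartments. The product of the cytosolic Eprs charges both glutamate and proline tRNAs. In animal cells 8 of the cytosolic enzymes assemble with scaffold proteins into a multi-synthetase complex. Many cytosolic synthetase genes are known targets of the transcription factor ATF4, which is itself controlled through upstream open reading frames (uORFs), and DENR acts with MCTS1 in reinitiation after a uORF has been translated.

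Sequences bearing on both routes are shown first. The ATF4 response element was searched as TGATGNAAN on both strands of RefSeq promoter windows of 300 bases (GRCm38.p6), which begin 250 bases before the annotated start site. Of the members, 27 had a window, and 5 of these (18.5%) held the letters, against 4.5% of all 27025 genes with a window. All 5 were among the 13 cytosolic enzymes with a window, and the count was 0 of 14 for mitochondrial enzymes. A match in each of the 5 genes is printed on the strand of its gene, minus for Tars and plus for the others. The motif, forward or reverse complement, is in capitals with 10 bases on each side.
Aars, chr8:111033840-111033868: agcgggtcacTTTTCATCAgagcgctctg
Gars, chr6:55037960-55037988: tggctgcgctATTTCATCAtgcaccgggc
Iars, chr13:49682126-49682154: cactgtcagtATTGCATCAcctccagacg
Tars, chr15:11399656-11399684: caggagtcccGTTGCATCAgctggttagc
Yars, chr4:129189896-129189924: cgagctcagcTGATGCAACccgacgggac
A match describes letters in a window and is not evidence of binding. In Yars the capitals include the CDS start codon (chr4:129189908-129189910) of its annotated transcript with the longest CDS.

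AUG-initiated uORFs were read from the 5′ UTR of the annotated transcript with the longest CDS (GENCODE, GRCm38). They were present in 14 of 36 members (38.9%), in 6 of 20 cytosolic (30%) and 8 of 16 mitochondrial enzymes (50%), against 50.4% of all genes. With the transcript of the longest 5′ UTR instead, 14 members again had a uORF, against 57.9% of all genes. Qars, the glutaminyl-tRNA synthetase, and Nars2, the mitochondrial asparaginyl-tRNA synthetase, are shown because the former had the lowest change in translation efficiency and the latter the highest 5′ UTR occupancy of the members covered. Each line gives the 9 bases before the start codon, the start codon in capitals and the next 3 bases, with the coordinates of the codon on the plus strand.
Qars, CDS start, chr9:108508083-108508085: gtgcctgctATGgct
Qars, uORF 260 bases upstream, chr9:108507823-108507825: tccacgcccATGgca
Qars, uORF 150 bases upstream, chr9:108507933-108507935: gactcataaATGgcg
Qars, uORF 62 bases upstream, chr9:108508021-108508023: tattggtcaATGagc
Qars, uORF 40 bases upstream, chr9:108508043-108508045: gctgttcagATGagg
Nars2, CDS start, chr7:96951804-96951806: ggtctcgccATGctc
Nars2, uORF 221 bases upstream, chr7:96951583-96951585: tccggtcccATGtac
Nars2, uORF 95 bases upstream, chr7:96951709-96951711: caggagcgcATGacg
In Qars the uORFs 62 and 40 bases upstream overlapped the CDS. Nars2 has 3 uORFs, none overlapping the CDS, and the third lies too near the transcript end for its context to be given.

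Values are RPKM of the CDS or the 5′ UTR, normalized by the authors separately for each assay, and translation efficiency (TE) is the log2 ratio of CDS footprints to CDS RNA in the same lysate. The read totals behind them, recovered from the RPKM steps, were 10927303 to 21649878 per RPF-seq library and 8514080 to 20109700 per RNA-seq library. Denr itself had 165 to 190 RNA RPKM in control and 15.5 to 44.0 in Denr Kd lysates, a log2 change of -2.75 ± 0.25 (SE, limma adjusted p = 0.000350). Its footprints changed by -3.05 ± 0.32 (SE, limma adjusted p = 0.000445), and both were lower with shRNA2 than with shRNA1. All 7 fibroblast markers examined were in the table, with summed RNA levels of 5398 to 5973 RPKM in control and 5596 to 6528 RPKM in Denr Kd lysates. Most of this sum was Vim, at a control mean of 4106 RPKM, while Pdgfrb had 30.8 RPKM. The epithelial, endothelial and myogenic lists, each with 1 gene in the table, reached at most 4.05, 0.862 and 1.55 RPKM in controls. The immune list had 0 genes in the table. The RNA-seq library of Denr shRNA1 replicate 1 stood apart, with a mean correlation with the other RNA-seq libraries of 0.9780, followed by that of scramble replicate 3 at 0.9820, while the other 9 lay between 0.9871 and 0.9905. Among RPF-seq libraries scramble replicate 3 was lowest at 0.9870, the other 10 being at 0.9908 to 0.9925. Where a call ended when 1 of the 11 lysates was left out, the lysates concerned are named beside it.

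In control cells the cytosolic synthetases were well above the typical gene and the mitochondrial ones below it. Control means of RNA ranged from 41.8 to 233 RPKM over the 20 cytosolic members, with a median of 113 RPKM, and from 1.81 to 43.2 RPKM over the 16 mitochondrial members, with a median of 10.9 RPKM. The median of all genes was 28.3 RPKM. Among the mitochondrial enzymes Tars2, threonyl, was the only gene within the cytosolic range. Seryl-tRNA synthetase Sars had the highest RNA level at 233 ± 34.7 RPKM (SD, n = 5), followed by Nars, asparaginyl, at 207 ± 15.3 RPKM and Kars, lysyl, at 202 ± 17.9 RPKM. Sars and Nars differed by less than the SD of Sars but more than that of Nars, and Nars and Kars by less than either SD. At the lower end of the cytosolic class stood Eprs at 41.8 ± 7.12 RPKM, Mars1, methionyl, at 45.7 ± 2.99 RPKM and Iars, isoleucyl, at 48.4 ± 1.97 RPKM.

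The mitochondrial order was led by Tars2 at 43.2 ± 3.88 RPKM (SD, n = 5), Yars2 at 37.0 ± 5.20 RPKM and Cars2, cysteinyl, at 23.3 ± 3.49 RPKM of RNA. It ended with Aars2, alanyl, at 5.31 ± 0.893 RPKM, Vars2, valyl, at 3.70 ± 0.331 RPKM and Lars2, leucyl, at 1.81 ± 0.177 RPKM. Lars2 thus lay at the 4.54th percentile of all genes and Sars at the 93.2nd. Its RNA values rest on as few as 44 reads per library.

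**Figure D1:**
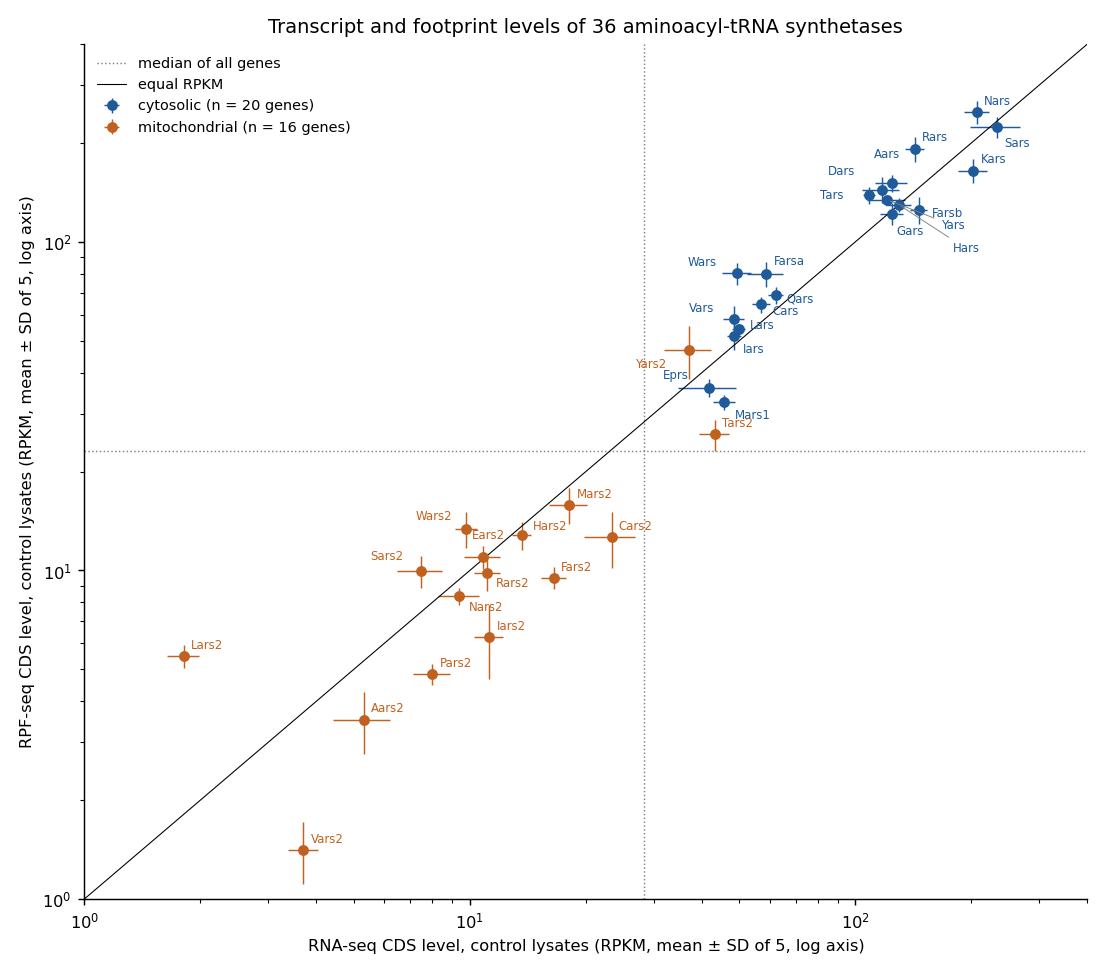
RNA-seq CDS level (x axis) against RPF-seq CDS level (y axis) of each member in control lysates, in RPKM on log axes, with points and bars for the mean ± SD of 5 lysates. Cytosolic enzymes (blue) lie to the upper right of the median of all genes (dotted lines), 14 of 16 mitochondrial enzymes (orange) lie to the lower left, and Lars2 stands above the line of equal RPKM.

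Class medians of footprints stood in the same order as those of RNA. The control median was 123 RPKM for cytosolic, 9.90 RPKM for mitochondrial and 23.1 RPKM for all genes. Single genes changed places: Nars at 249 RPKM was above Sars at 223 RPKM, Yars2 at 46.9 RPKM above Tars2 at 25.95 RPKM, and Vars2 at 1.41 RPKM was the lowest. Across genes, log2 footprints and log2 RNA correlated with r = 0.962 over the 36 members, 0.943 within the cytosolic and 0.808 within the mitochondrial class. These are descriptions over genes that share libraries and are not independent. Control log2 TE had a median of 0.15 for cytosolic, -0.19 for mitochondrial and -0.08 for all genes.

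Lars2 had the highest TE at 1.55 ± 0.11 (SD, n = 5, log2), since its 5.48 RPKM of footprints sat on the lowest RNA level of the set. Wars, tryptophanyl, followed at 0.70 ± 0.10 and Farsa, a phenylalanyl subunit, at 0.44 ± 0.09, with Wars2 close to it at 0.44 ± 0.21. The lowest were Vars2 at -1.35 ± 0.22, Cars2 at -0.89 ± 0.08 and Iars2 at -0.87 ± 0.33. Within the cytosolic class the range was narrower, from -0.49 for Mars1 to 0.70 for Wars.

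For the 17 pairings of a cytosolic with a mitochondrial enzyme of the same amino acid, the cytosolic gene was higher in all 11 lysates at both levels. The ratio of RNA ranged from 2.46 for Cars over Cars2 to 31.1 for Sars over Sars2, with a median of 5.20. The ratio of footprints ranged from 2.07 for Mars1 over Mars2 to 43.6 for Aars over Aars2, with a median of 8.45. Vars over Vars2 was 13.1 in RNA and 42.0 in footprints, whereas Lars over Lars2 went the other way, from 27.6 in RNA to 9.92 in footprints. Farsa and Farsb, which encode the subunits of a single phenylalanyl enzyme, were not equal: Farsb exceeded Farsa 2.50-fold in RNA and 1.57-fold in footprints.

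**Figure D2:**
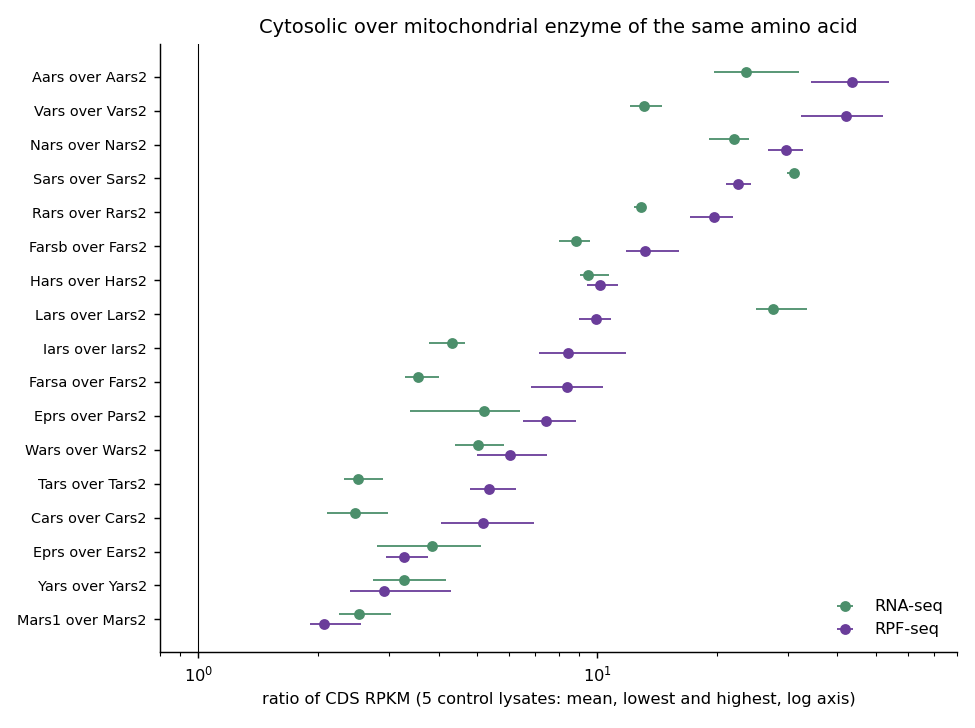
Ratio of CDS RPKM of the cytosolic over the mitochondrial enzyme of the same amino acid (x axis, log scale) for the 17 pairings, in RNA-seq (green) and RPF-seq (purple), with the mean, lowest and highest of 5 control lysates. Every ratio lies above 1, and the footprint ratio exceeds the RNA ratio most in Vars over Vars2 and falls below it most in Lars over Lars2.

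The first question of the design was whether Denr Kd altered transcript levels. In limma fits over all 10516 genes (log2 of RPKM + 0.1, Denr Kd against control), 3.55% of genes passed an adjusted p of 0.1 for RNA, and 0 of 36 members did. At an unadjusted p below 0.05 there were 2 lower and 2 higher members, against 16.1% of all genes in either direction. A second fit on the recovered reads (voom) also called 0 members, against 3.70% of all genes. The median log2 change was -0.08 over the members and 0.03 over all genes, and 27 members (75%) had a negative value, against 42.9% of all genes. In bulk lysates, fewer cells expressing a gene and less RNA per cell cannot be told apart.

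Qars had the highest RNA change of the 3 cytosolic members with a positive value, the others being Sars at 0.13 and Farsa at 0.01. Its RNA was 67.8 RPKM at the lowest, 70.8 at the median and 76.6 at the highest among 6 Denr Kd lysates, and 66.1 and 59.4 (Gfp) and 63.5, 60.1 and 61.7 RPKM (scramble) among controls. Every Denr Kd lysate was above every control lysate, a log2 change of 0.19 ± 0.06 (SE) whose limma adjusted p of 0.126 did not pass. Such a separation upwards was found in 2.63% of all genes. Without Gfp replicate 1 it did, at an adjusted p of 0.0904.

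The largest RNA values among mitochondrial enzymes were a log2 change of 0.26 ± 0.16 (SE) for Lars2 and 0.18 ± 0.08 for Wars2, and the smallest were -0.26 ± 0.11 for Mars2, -0.21 ± 0.11 for Yars2 and -0.18 ± 0.08 for Iars2. None passed, with limma adjusted p values between 0.276 and 0.446 for these 5. The Lars2 value rested on Denr shRNA2, whose lysates had 1.86, 2.63 and 3.16 RPKM, while those of Denr shRNA1 (1.99, 2.06 and 1.67 RPKM) overlapped the controls at 1.55 to 2.01 RPKM. Mars2 likewise had 12.7 to 14.7 RPKM under shRNA2 and 15.7 to 18.6 RPKM under shRNA1, the controls being at 15.7 to 20.3 RPKM. In the limma contrast between the hairpins 0 members were called for RNA.

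CDS footprints gave the clearest change of the set. Of 36 members, 6 passed (limma adjusted p below 0.1), all lower in Denr Kd: the cytosolic Vars, Aars, Cars, Eprs and Lars and the mitochondrial Mars2. Over all genes 10.0% were called and 4.55% were called lower. Of the cytosolic enzymes 19 of 20 had a negative value and of the mitochondrial 9 of 16, against 48.1% of all genes. Median log2 changes were -0.12 for the cytosolic class, -0.02 for the mitochondrial class, -0.10 for all members and 0.01 for all genes. Between the control hairpins, Gfp against scramble, the same medians were -0.06, -0.11, -0.10 and 0.02, so that the members' median differed as much between controls as in Denr Kd. These comparisons share the control lysates. The cytosolic minus the mitochondrial median was also taken per lysate, with each gene relative to its control mean. It was -0.175 to -0.013 in Denr Kd and -0.078 to 0.105 in control lysates, so the groups overlapped. Summed over the 20 cytosolic enzymes, footprints came to 2082 to 2256 RPKM in Denr Kd and 2195 to 2401 RPKM in control lysates, a difference of the means of -7.15%. Over the 16 mitochondrial enzymes the sums were 177 to 193 and 169 to 214 RPKM, a difference of -6.69%.

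Vars (ENSMUSG00000007029, chr17:35000987-35016322, plus strand, GRCm38), valyl-tRNA synthetase, showed the largest decrease. Footprints were 40.4 RPKM at the lowest, 44.4 at the median and 49.9 at the highest in Denr Kd, and 56.6 and 52.4 (Gfp) and 66.7, 59.5 and 56.2 RPKM (scramble) in control lysates. The groups did not overlap, and the log2 change was -0.39 ± 0.07 (SE, limma adjusted p = 0.0149), with -0.38 for shRNA1 and -0.39 for shRNA2 alone. This call held in all 21 alternative fits.

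Aars (ENSMUSG00000031960, chr8:111033144-111057664, plus strand), alanyl-tRNA synthetase, had 103 RPKM of footprints at the lowest, 129 at the median and 132 at the highest in Denr Kd. Its control lysates gave 154 and 159 (Gfp) and 157, 147 and 136 RPKM (scramble), so the groups did not overlap. The log2 change was -0.28 ± 0.07 (SE, limma adjusted p = 0.0401). The call ended, at an adjusted p of 0.1001, without scramble replicate 1 and, at 0.119, with shRNA2 alone. Aars is also among the genes with the motif in the promoter window, shown above.

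Cars (ENSMUSG00000010755, chr7:143557230-143600090, minus strand), cysteinyl-tRNA synthetase, fell from 60.1 and 60.9 (Gfp) and 67.9, 66.7 and 66.9 RPKM (scramble) to 48.1 RPKM at the lowest, 54.6 at the median and 58.6 at the highest. There was again no overlap, with a log2 change of -0.27 ± 0.06 (SE, limma adjusted p = 0.0290). It passed with any lysate left out, but not with shRNA1 alone (adjusted p = 0.155).

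Lars, the leucyl-tRNA synthetase of the multi-synthetase complex, had control footprints of 57.4 and 52.3 (Gfp) and 54.9, 53.1 and 53.4 RPKM (scramble). In Denr Kd the lowest was 44.9, the median 47.8 and the highest 52.1 RPKM, just below the lowest control. The log2 change was -0.18 ± 0.05 (SE, limma adjusted p = 0.0671). It did not pass in 7 of 21 alternative fits: without Denr shRNA1 replicate 2, Denr shRNA2 replicate 1 or 2, Gfp replicate 1 or scramble replicate 1 or 2 (adjusted p = 0.111 to 0.145), and with shRNA1 alone (0.255). Vars, Aars, Cars and Lars were the 4 members with all Denr Kd lysates below all controls, a pattern found in 1.97% of all genes.

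Eprs (ENSMUSG00000026615, chr1:185363044-185428360, plus strand), also of that complex, had control footprints of 36.6 and 34.3 (Gfp) and 34.3, 34.8 and 39.5 RPKM (scramble). With shRNA1 it had 35.02, 30.6 and 33.5 RPKM and with shRNA2 29.3, 26.5 and 27.8 RPKM, so that only shRNA2 lay wholly below the controls. The log2 change over both was -0.24 ± 0.08 (SE, limma adjusted p = 0.0870), made up of -0.12 for shRNA1 and -0.36 for shRNA2. The call was lost in 10 of 21 alternative fits: without Denr shRNA1 replicate 2, Gfp replicate 1 or any replicate of Denr shRNA2 or scramble (adjusted p = 0.120 to 0.176), without trend (0.108) and with shRNA1 alone (0.434). Its RNA was lowest in Denr shRNA1 replicate 1 at 29.8 RPKM and Gfp replicate 1 at 31.9 RPKM, the other 9 lysates being at 37.3 to 49.2 RPKM.

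Mars2 (ENSMUSG00000046994, chr1:55237177-55248470, plus strand), the mitochondrial methionyl-tRNA synthetase, had control values of 15.9 and 12.8 (Gfp) and 18.2, 16.8 and 15.3 RPKM (scramble). Denr Kd values were 11.8 at the lowest, 12.7 at the median and 13.5 RPKM at the highest, overlapping the lower Gfp lysate. The log2 change was -0.31 ± 0.08 (SE, limma adjusted p = 0.0479). This was no longer called without scramble replicate 1 (-0.26, adjusted p = 0.126) or scramble replicate 2 (-0.29, 0.121), or with shRNA1 (0.167) or shRNA2 (0.119) alone.

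**Figure D3:**
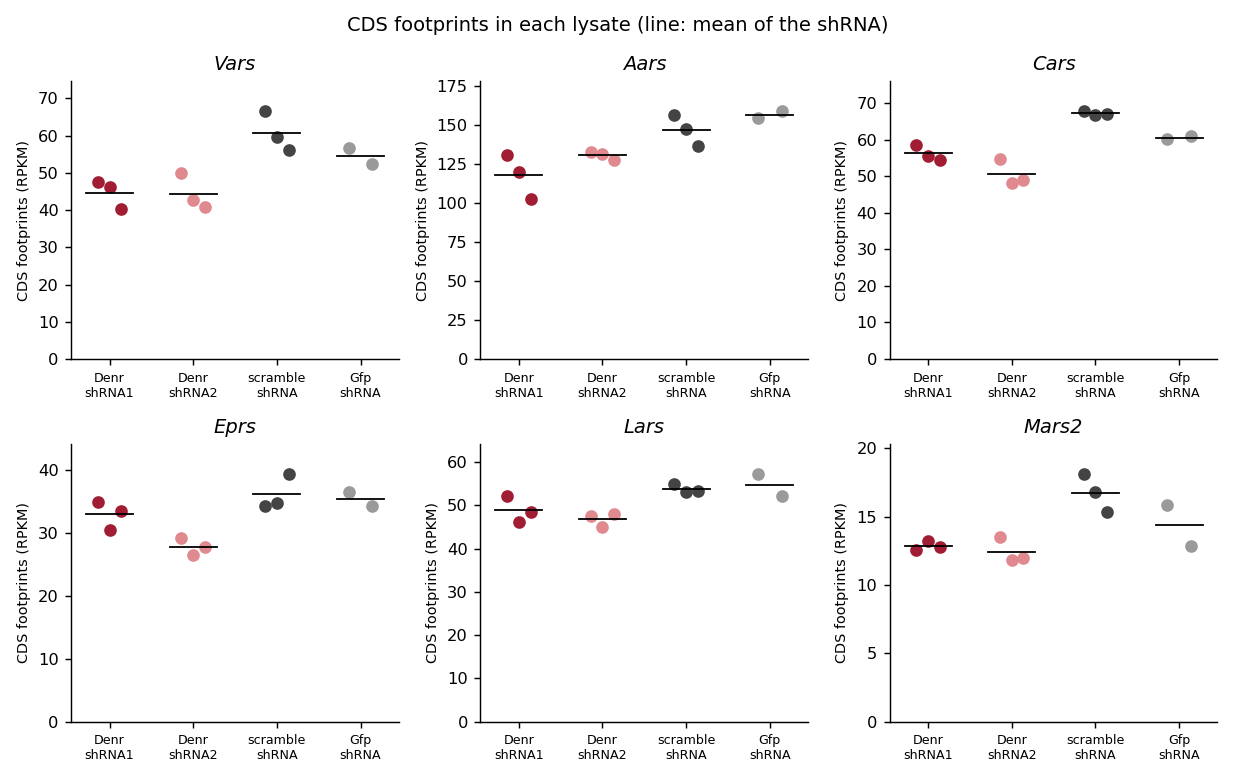
CDS footprints in RPKM (y axis, from 0) of the 6 members that passed in Denr Kd against control, for each lysate of the 4 shRNAs (points) with the mean of each shRNA (line). In Vars, Aars, Cars and Lars all 6 Denr Kd lysates lie below all 5 controls, while in Eprs and Mars2 the groups overlap.

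Iars2, mitochondrial isoleucyl, had the second largest decrease in size without passing, a log2 change of -0.36 ± 0.15 (SE, limma adjusted p = 0.175). Its Denr Kd footprints were 4.09 to 5.19 RPKM and its scramble footprints 6.44, 7.72 and 7.57 RPKM, but Gfp replicate 2, at 3.78 RPKM, was the lowest of all 11 lysates. Without that library the value was -0.53 with an adjusted p of 0.0119. At the other end, Lars2 had a log2 change of 0.11 ± 0.08 (SE), Pars2, prolyl, 0.10 ± 0.09 and Sars 0.09 ± 0.06, with limma adjusted p values of 0.403 to 0.489. Sars, the member highest in RNA, was the only cytosolic enzyme with a positive footprint value.

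Membership of the multi-synthetase complex did not separate the cytosolic enzymes. The median log2 footprint change was -0.11 for the 8 in the complex, of which 2 were called, and -0.13 for the 12 outside it, of which 3 were called. The complex members were lower in abundance, with a median control RNA level of 56.0 RPKM against 122 RPKM. This grouping was made after the values were seen and was not tested.

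The count of 6 depended on single libraries and on the choice of control. It was 14 without Gfp replicate 2, 2 without scramble replicate 1 and 3 without scramble replicate 2, and it was 16 with scramble lysates alone as the control, 2 with shRNA1 alone and 5 with shRNA2 alone, every called member being lower each time. Over all genes the share called lower, 4.55%, moved likewise, to 9.05%, 2.06% and 2.18% without those libraries in turn. It was 11.2% with scramble alone as the control and 3.76% with shRNA2 alone. With shRNA1 alone, where the member count fell to 2, the share did not fall and was 4.63%. Without scramble replicate 3, the RPF-seq library that stood apart, and without Denr shRNA1 replicate 1 it was 6, with 2.85% and 3.83% of all genes called lower.

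**Figure D4:**
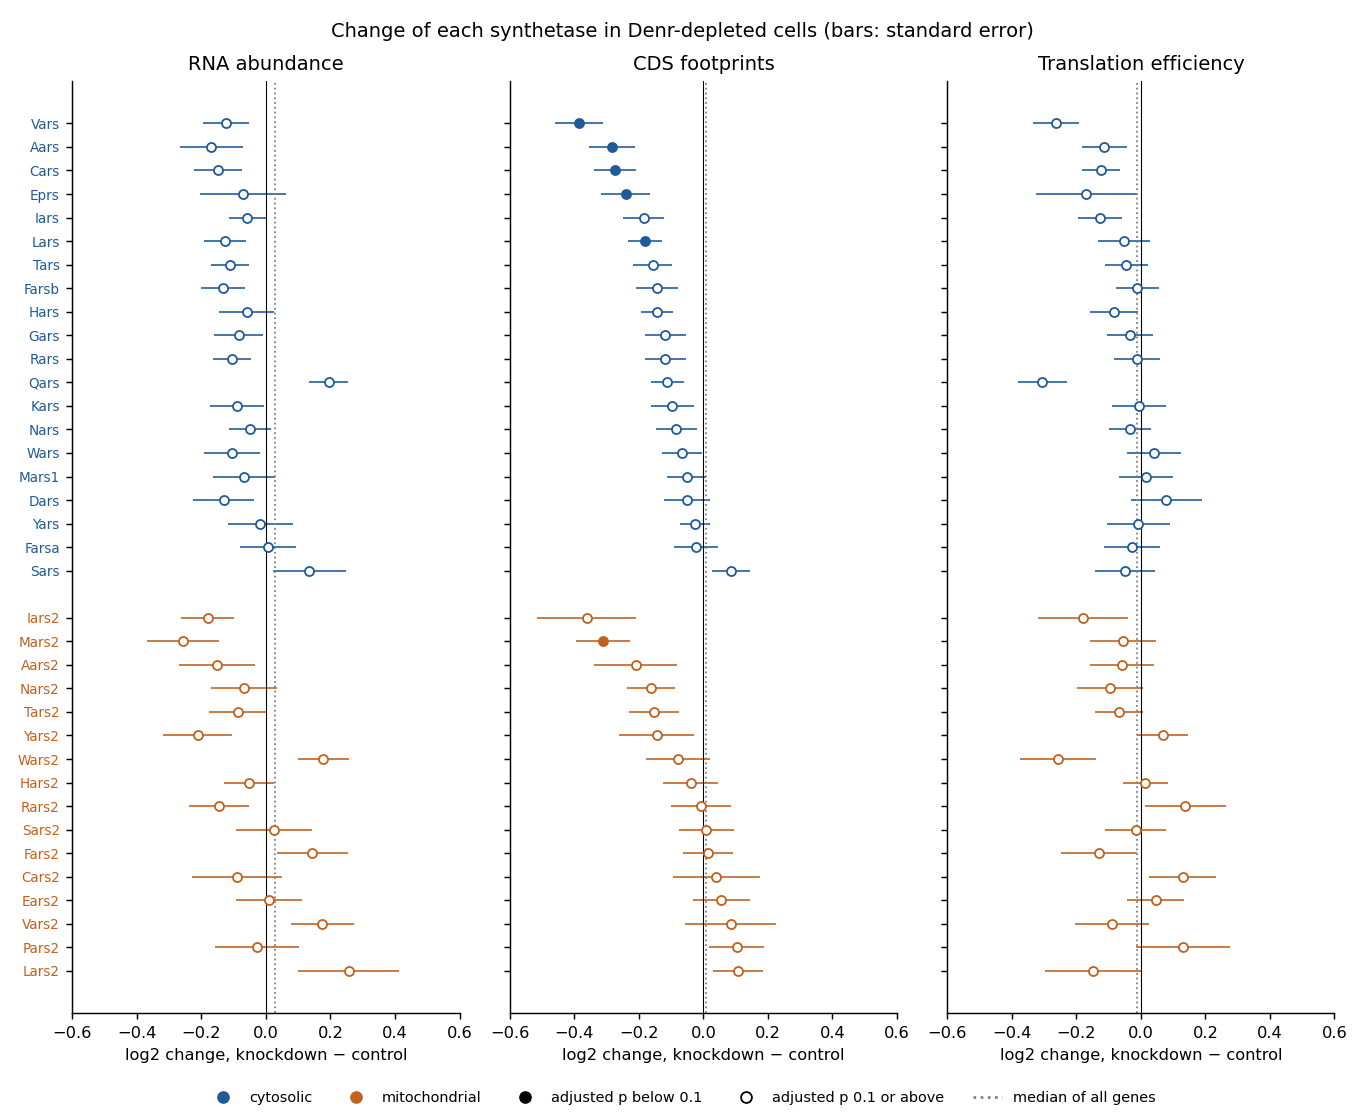
Log2 change in Denr Kd against control (x axis) of RNA abundance, CDS footprints and TE for each of 36 members, with bars for the standard error, filled points for an adjusted p below 0.1 and dotted lines for the median of all genes. Filled points occur only for footprints, at 6 members left of 0, and Qars is the member with the highest cytosolic RNA value and the lowest TE value.

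TE asks whether footprints moved apart from RNA. In the limma fit 0.475% of genes passed, all lower, and 0 of 36 members did. At an unadjusted p below 0.05 there were 3 lower and 0 higher members, against 6.66% of all genes in either direction. The fit on recovered reads called 0 members, against 0.342% of all genes. Median log2 TE changes were -0.05 over the members, -0.04 for cytosolic, -0.06 for mitochondrial and -0.01 for all genes.

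Qars had the lowest value. Log2 TE was -0.33, -0.10 and -0.14 with shRNA1 and -0.12, -0.09 and -0.18 with shRNA2, against -0.04 and 0.15 (Gfp) and 0.18, 0.31 and 0.13 (scramble). All Denr Kd lysates were below all controls, as in 1.32% of all genes, with a change of -0.31 ± 0.08 (SE, limma adjusted p = 0.193), which passed in an interaction fit over 22 libraries (adjusted p = 0.0958). Without Denr shRNA1 replicate 1, whose RNA-seq library stood apart, it was -0.27 with an adjusted p of 0.170. Its footprints alone changed by -0.11 ± 0.05 (SE, limma adjusted p = 0.213), so that the TE value combines the higher RNA described above with slightly lower footprints.

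Vars followed with a TE change of -0.26 ± 0.07 (SE, limma adjusted p = 0.259), its Denr Kd lysates at -0.14 to 0.19 and its controls at 0.23 to 0.33, again without overlap. Wars2 had -0.26 ± 0.12 (SE, limma adjusted p = 0.742). The highest values, 0.14 for Rars2, arginyl, and 0.13 for Pars2 and Cars2, had limma adjusted p values of 0.972 or above. In Rars2 the Denr Kd lysates spread from -0.26 to 0.33 and the controls from -0.43 to 0.09.

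Reinitiation concerns ribosomes on the 5′ UTR, so 5′ UTR footprints relative to CDS footprints were compared where the 5′ UTR had at least 20 reads in at least 9 of 11 RPF-seq libraries. This left 5175 genes and 9 members: Aars, Dars, Lars, Nars, Tars, Vars and Wars of the cytosolic class and Nars2 and Tars2 of the mitochondrial class. The ratio rose in the transcriptome as a whole, with a median log2 change of 0.33 and 18.1% of covered genes called. All 9 members had positive values, from 0.33 for Nars to 0.66 for Tars2, with a median of 0.46. Called were Tars2 at 0.66 ± 0.21 (SE, limma adjusted p = 0.0759), Dars, aspartyl, at 0.56 ± 0.20 (0.0892), Vars at 0.55 ± 0.20 (0.0912) and Lars at 0.53 ± 0.19 (0.0906). The lowest values were those of Nars, Nars2 at 0.35 and Tars at 0.44, with limma adjusted p values of 0.166 to 0.303. In Vars and Lars the CDS footprints, the denominator of this ratio, were themselves lower, by log2 changes of -0.39 and -0.18. Their ratios are thus not separate from the footprint calls above.

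The general shift was then taken out. With each library centred on its median over the covered genes the changes were 0.33 for Tars2, 0.24 for Dars, 0.23 for Vars and 0.21 for Lars, the limma adjusted p values were 0.612 to 0.702 and 0 members were called, as were only 0.0773% of all covered genes. In no member did the groups separate, against 4.83% of covered genes that did so upwards: in Vars the Denr Kd ratios were -1.90 to -1.32 and the control ratios -2.80 to -1.68 on the log2 scale. The count of 4 was 7 without Gfp replicate 2 and 0 without any replicate of Denr shRNA1, Denr shRNA2 replicate 2, Gfp replicate 1, scramble replicate 1 or scramble replicate 3. Lars was also lost without scramble replicate 2. The count was 0 too with 5′ UTR footprints taken over 5′ UTR RNA. The share of covered genes called moved with it, to 34.3% without Gfp replicate 2, to 0.734% to 11.2% without each library that gave 0 members, and to 0.0773% over 5′ UTR RNA.

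Nars2 was the covered member with the highest occupancy of the 5′ UTR. Its log2 ratio was 0.04 to 1.01 in Denr Kd and -0.88 to 0.72 in control lysates, on 26 to 64 reads, whereas the next member, Lars, was at -1.24 to -0.67 and -2.04 to -0.97. Its change of 0.35 ± 0.25 (SE, limma adjusted p = 0.303) did not pass and became -0.08 with 5′ UTR RNA as the reference. Qars, with 4 uORFs, had only 0 to 6 footprint reads per library on its 5′ UTR and 23 in all, too few for a ratio, so that a change there was not detectable at this depth. Pars2 had 13 uORFs and 0 to 28 reads. Of the 14 members with a uORF, 3 were covered (Nars, Nars2 and Tars2), and of the 22 without, 6 were. The transcripts read for uORFs were often not those behind the deposited values: in 8 of the 9 covered members the 5′ UTR lengths differed, in 6 by over 50 bases, the exception being Nars2. The differences were largest for Tars2 and Aars, at 621 and 1043 bases in the deposited values against 33 and 383 bases.

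**Figure D5:**
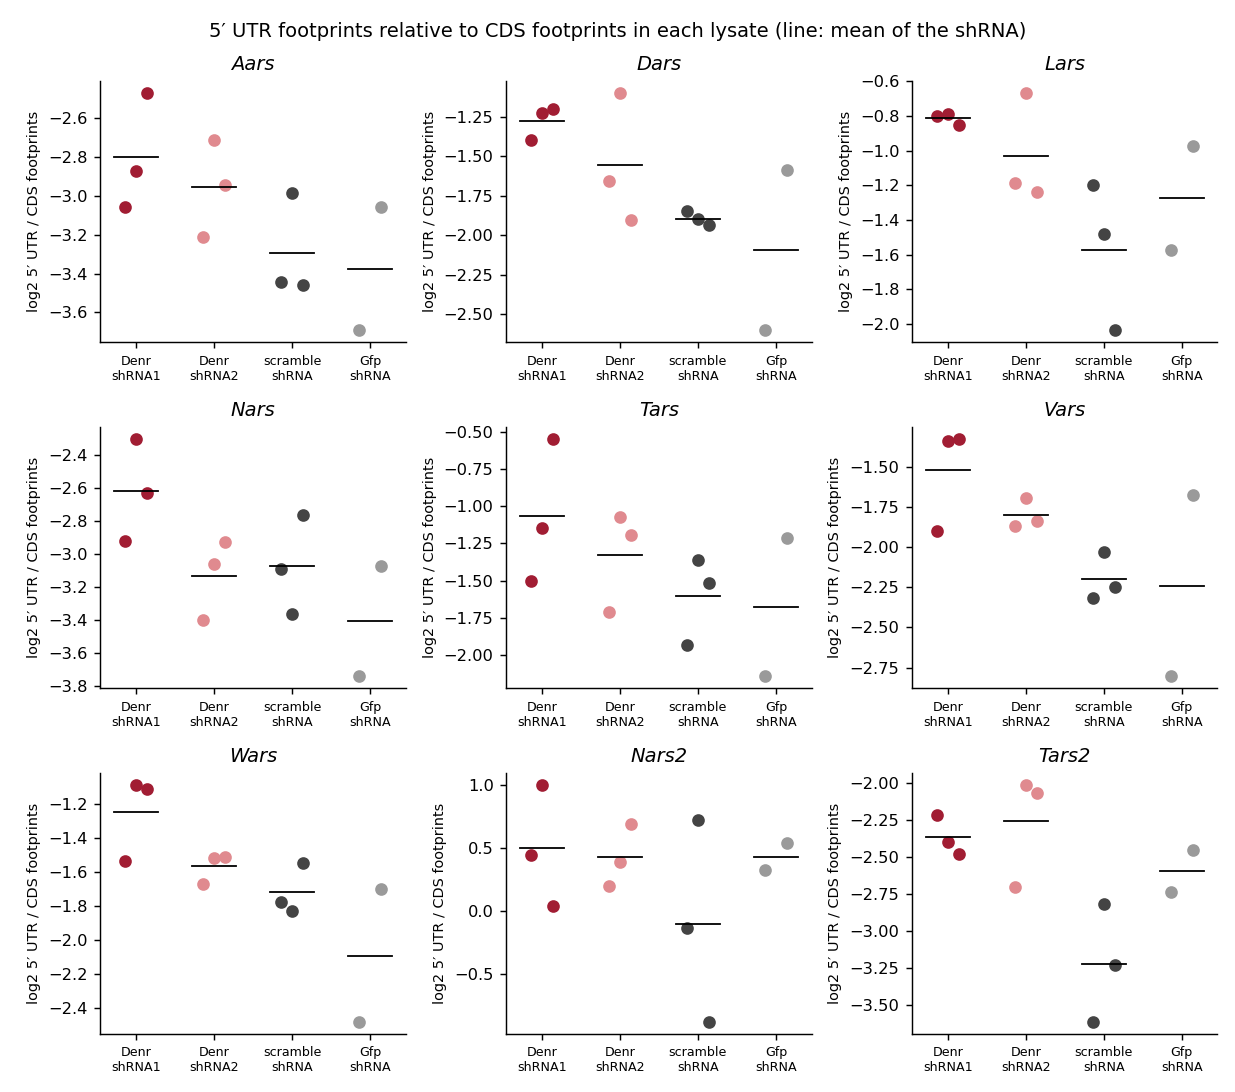
Log2 ratio of 5′ UTR to CDS footprints (y axis) of the 9 covered members in each lysate of the 4 shRNAs (points), with the mean of each shRNA (line). In 7 of the 9 members the means of both Denr hairpins lie above those of both controls, the others being Nars and Nars2, and no panel shows complete separation.

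The hairpins against the same target, and the controls against each other, give the size of differences not shared by Denr Kd. For footprints 9.69% of genes were called between Denr shRNA2 and shRNA1, and of the members 2 were, both lower with shRNA2: Ears2, mitochondrial glutamyl, by -0.28 ± 0.09 (SE, limma adjusted p = 0.0874) and Eprs by -0.24 ± 0.08 (limma adjusted p = 0.0973). Ears2 had 12.8, 12.7 and 12.2 RPKM with shRNA1, 10.3, 10.99 and 9.67 RPKM with shRNA2 and 9.66 to 11.7 RPKM in controls, so that shRNA1 was the group outside the control range. The count was 0 without Denr shRNA1 replicate 1 or 3, any replicate of Denr shRNA2 or scramble replicate 2, and 1 without Denr shRNA1 replicate 2 or either Gfp replicate. Over all genes 5.33% to 8.62% were called in the former fits and 6.15% to 9.08% in the latter.

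Between Gfp and scramble shRNA 8.48% of genes were called for footprints, and 3 members, all lower with Gfp. Of the 36 members 25 had a negative value. The 3 called members were Iars2 by -0.61 ± 0.17 (SE, limma adjusted p = 0.0643), Yars2 by -0.45 ± 0.12 (limma adjusted p = 0.0644) and Kars by -0.22 ± 0.07 (limma adjusted p = 0.0956). Gfp replicate 2 was the lowest control lysate in each, with 3.78 RPKM for Iars2, 32.5 RPKM for Yars2 and 146 RPKM for Kars. The count was 0 without that library and likewise without scramble replicate 2 or 3. In those fits the share of all genes called fell to 1.46%, 4.91% and 5.26% in turn. Kars passed only in the fits without Denr shRNA1 replicate 3 or scramble replicate 1, of the 11 that left out a lysate. None of these 3 was called in Denr Kd against control.

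For RNA, 2.06% of genes were called between the Denr hairpins and 0.704% between the controls, and 0 members in either limma fit. At an unadjusted p below 0.05 there were 4 lower members between the hairpins and 1 lower member between the controls, against 13.6% and 9.69% of all genes. For TE 0% of genes were called in both comparisons and 0 members. Unadjusted, 2 members were higher between the hairpins and 1 was lower between the controls, against 3.73% and 2.22% of all genes.

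Genes that work beside the synthetases were read from a list with 28 genes in the table. In RNA 3 of 28 were called, all higher and all in the ATF4 arm, against 3.55% of all genes called and 2.68% called higher. They were the transcription factor gene Atf4 by 0.38 ± 0.08 (SE, limma adjusted p = 0.0266), its target Ddit3, which encodes CHOP, by 0.52 ± 0.14 (0.0854) and the pseudokinase gene Trib3 by 0.61 ± 0.13 (0.0279). The Ddit3 call was lost in 8 of 21 alternative fits: without Denr shRNA1 replicate 2 or 3, Denr shRNA2 replicate 1 or any scramble replicate (adjusted p = 0.123 to 0.225), with centred libraries (0.111) and with shRNA2 alone (0.262). Its change was 0.76 with shRNA1 and 0.29 with shRNA2. Atf4 did not pass with shRNA1 alone (adjusted p = 0.125), nor Trib3 with shRNA2 alone (0.108). Atf4 RNA was 1152 to 1243 RPKM in control and 1417 to 1806 RPKM in Denr Kd lysates, without overlap. Asns, asparagine synthetase and a further ATF4 target, had -0.08. The other genes listed in this arm were not called either: Chac1 had 0.04, Eif2ak4 0.11, Eif2s1 -0.13 and Sesn2 -0.16. The 5 synthetase genes with a match to the ATF4 motif, in Yars over the CDS start codon, had in the same libraries log2 RNA changes of -0.17 (Aars), -0.11 (Tars), -0.09 (Gars), -0.06 (Iars) and -0.02 (Yars), none of which passed.

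In footprints 2 of the 28 were called, against 10.0% of all genes. Trib3 was higher by 0.44 ± 0.10 (SE, limma adjusted p = 0.0247) and Eef1b2, the exchange factor that recycles the elongation factor delivering charged tRNA, was lower by -0.36 ± 0.09 (limma adjusted p = 0.0352). Trib3 did not pass with shRNA2 alone (adjusted p = 0.145), nor Eef1b2 with shRNA1 alone (0.160). Footprints of Atf4 changed by 0.24 ± 0.11 (SE, limma adjusted p = 0.215). For TE 0 of 28 passed, against 0.475% of all genes. The fit on recovered reads called 0 of the 28, against 0.342% of all genes. At an unadjusted p below 0.05 there were 4 lower and 0 higher, against 6.66% of all genes in either direction. In the relative 5′ UTR measure 12 of the 28 were covered, all positive, and 1 was called, against 18.1% of covered genes. This was Eef1a1, the elongation factor itself, at 0.66 ± 0.19 (SE, limma adjusted p = 0.0560), which was 0.34 after centring (adjusted p = 0.516). It did not pass either without Denr shRNA1 replicate 2 or 3, Denr shRNA2 replicate 2, Gfp replicate 1 or scramble replicate 1 (adjusted p = 0.102 to 0.136).

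The scaffold genes, the amidotransferase genes and Tarsl2 did not pass in RNA, footprints or TE. Log2 footprint changes were -0.17 for Aimp2, -0.05 for Aimp1 and -0.04 for Eef1e1, the scaffold genes of the multi-synthetase complex. Mitochondria lack a glutaminyl enzyme of their own and convert glutamate on the tRNA instead, and the amidotransferase genes Gatb, Gatc and Qrsl1 had log2 footprint changes of 0.09, 0.04 and 0.01. Tarsl2, a cytosolic threonyl enzyme outside the 36, had a log2 footprint change of -0.12.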

How the data were processed

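Ribosome-protected footprints and total RNA of 11 lysates were sequenced as 22 libraries. Per the study's methods and the submitters' processing notes (CASAVA 1.82, cutadapt, Bowtie2 2.2.1, TopHat2 2.0.11, Cufflinks 2.2.1, edgeR; GRCm38.p2), the authors kept reads by length, aligned them, counted them on expressed isoforms and deposited RPKM of CDS and 5′ UTR, upper-quartile normalized for each assay separately. Genes with few reads were removed by the authors. Replicates were not pooled.

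From these RPKM values log2(RPKM + 0.1) was fitted with limma 3.58.1 (R 4.3.3, moderated variances with trend) over all genes and adjusted by Benjamini-Hochberg, with a threshold of 0.1: 6 Denr Kd against 5 control lysates, and contrasts of hairpins in a fit with 4 groups. A fold change on this scale understates that of low genes. TE and the relative 5′ UTR measure were computed per lysate, and no batch label was given. The steps between deposited RPKM values gave back whole read numbers without exception (231352 values for CDS, 228800 for 5′ UTR, taken as whole within 0.002 reads or, for large numbers, a share of 2e-06 and at most 0.05 reads), and an alternative fit used them (voom). The limma fit of footprints in Denr Kd against control was tested on simulated data. Tables and plots used Python 3.11.15, pandas 2.3.3 and matplotlib 3.10.9.

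Described by name were members past the threshold in any comparison, the 3 lowest and 3 highest members of each Denr Kd comparison, the 3 highest and 3 lowest in control RNA of each class and in TE, Denr, Atf4 and related genes past the threshold. Members with motif matches, uORF examples and pairs were added after their values were seen. Values of 1 related gene and the sequence of 1 motif match are not reported here. The members and lists were chosen with earlier results of these data known. Symbols, transcripts and 5′ UTRs came from GENCODE vM21. Alternatives were other pseudocounts, a minimum RPKM, centred libraries, fits without trend, a replicate block, each replicate left out, hairpins or controls alone and fits on reads. The p-values measure the spread between lysates, whose cultures are described by the study as biological replicates.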

Additional observations from a re-analysis of the deposited data

Results flagged for a closer look

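In each group of 5 controls or 6 Denr Kd lysates, the lowest or highest lysate was compared with its nearest neighbour (Dixon's criterion) for RNA, footprints and TE of each member. Of 216 groups 12 had an outlying value, where chance flags about 1 in 20. Of the 12, 9 fell on Denr shRNA1 replicate 1, all in RNA or TE and none in footprints. Its log2 TE was -0.0437 for Aars (others 0.167 to 0.246), 0.233 for Eprs (-0.582 to -0.379), -0.334 for Qars (-0.178 to -0.0862), -0.385 for Sars (-0.104 to 0.0347), 0.491 for Tars (0.239 to 0.325), -1.13 for Pars2 (-0.577 to -0.295) and -1.01 for Tars2 (-0.798 to -0.731). Its RNA was 70.8 RPKM for Farsa (others 55.2 to 57.5) and 154 RPKM for Yars (108 to 120). The part of this library in the TE values was measured by leaving it out, and the counts of members called for RNA, footprints and TE stayed at 0, 6 and 0.

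Scramble replicate 3 was outlying for footprints of Nars at 214 RPKM (others 253 to 263) and for log2 TE of Lars2 at 1.35 (1.58 to 1.62), and Gfp replicate 2 for footprints of Rars at 163 RPKM (193 to 204).

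The effect of Denr Kd differed between hairpins for the footprints of 2 members, by the limma contrast of Denr shRNA2 against shRNA1: Ears2 at -0.28 and Eprs at -0.24 on the log2 scale. Every shRNA2 lysate was below every shRNA1 lysate for both. Both genes were picked by this same contrast, and the share of all genes separated in this way was not taken.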

How the results depend on the processing

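Counts of members called were recomputed under each alternative. For RNA in Denr Kd the count of 0 was 1 with the replicate block, with Denr shRNA2 alone and with scramble alone as control. Over all genes those fits called 9.54%, 4.51% and 8.94% in turn. The RNA count was 0 to 1 with a replicate left out. For footprints in Denr Kd the count of 6 was 2 with Denr shRNA1 alone, 16 with scramble alone and 2 to 14 with a replicate left out. For TE the count of 0 was 1 in the interaction fit, which did not pair the libraries of a lysate and called 0.371% of all genes. It was 0 with every replicate left out. For the relative 5′ UTR measure the count of 4 was 0 with centred libraries, with either hairpin alone, with a minimum 5′ UTR RPKM as the filter and over 5′ UTR RNA. It was 2 with scramble alone and 0 to 7 with a replicate left out. The share of covered genes called was 0.0966% and 0.174% with shRNA1 and shRNA2 alone. It was 1.69% with the minimum 5′ UTR RPKM and 9.93% with scramble alone. Between hairpins the footprint count of 2 was 1 with centred libraries and 1 without trend, where 9.82% and 8.98% of all genes were called. It was 0 to 2 with a replicate left out. Between Gfp and scramble shRNA the count of 3 was 0 to 3 with a replicate left out. The difference of class medians in TE, cytosolic minus mitochondrial, was 0.02 and became -0.0429 with Denr shRNA1 alone. Taken per lysate, it was -0.114 to 0.061 in Denr Kd and -0.036 to 0.056 in controls, and the means differed by -0.038. Nars2 reversed to -0.0782 over 5′ UTR RNA, and the cause was not tested. Other pseudocounts and the minimum mean RPKM changed no count.

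Groups share replicate numbers, and same-numbered lysates tended to deviate together, though not in every pair. Correlations of their deviations over 15 pairs ran from -0.08 to 0.77 for RNA, with 10 above 0.1. For footprints they ran from -0.003 to 0.32, with 13 above 0.1. Of 11 lysates, 7 (RNA) and 9 (footprints, TE) correlated best with a lysate of their own number. The main fits held no replicate term. With the replicate block the counts were 1 (RNA) and 9 (footprints) in Denr Kd and 7 for the relative 5′ UTR measure. They were 3 (RNA) and 4 (footprints) between hairpins and 5 (footprints) between Gfp and scramble shRNA. The shares of all genes called rose too. In Denr Kd they went from 3.55% to 9.54% (RNA), from 10.0% to 18.4% (footprints) and from 18.1% to 46.7% (relative 5′ UTR). Between hairpins they went from 2.06% to 9.18% (RNA) and from 9.69% to 17.2% (footprints). Between Gfp and scramble shRNA the footprint share went from 8.48% to 13.7%.

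Depth limits the lowest members most: Vars2 had as few as 41 footprint reads and Lars2 as few as 44 RNA reads in a library.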
